A study of Mus musculus with 42 samples.

Results

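The comparison described here is that of the left heart field between mouse embryos of the heterotaxy cluster and embryos of the situs solitus cluster, as read by bulk RNA sequencing. It rests on 16 left libraries, 6 of heterotaxy and 10 of situs solitus, out of 42 libraries from the left and right sides of 21 embryos. The heterotaxy libraries came from embryos 3_7, 15_5, 18_1, 19_4, 23_3 and 32_3, all Ccdc40lnks/lnks, of which 2 were female and 4 male. The situs solitus libraries came from 5 Ccdc40+/+ wild types (7_1, 8_1, 10_1, 17_7 and 22_4) and 5 Ccdc40lnks/lnks mutants (1_6, 2_2, 17_1, 19_6 and 22_1), 4 female and 6 male. All 16 embryos were collected at stage E8.5i and had a heart loop directed rightward. The lnks allele carries a nonsense change induced by ENU, and it is present in every cell of a mutant. Each library is the microdissected left side of the field of a single embryo, so it mixes all cells of that piece.

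The clusters are not part of the sample labels. The study drew them from right minus left differences, in these same libraries, of genes that were asymmetric in its wild types. Such genes stayed in the table over which p-values were adjusted, but their levels on the left are given only as a description, without a p, and nothing is drawn from a call on them.

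In the mouse, motile cilia of the node drive a leftward flow, and CCDC40 is part of the ruler that spaces the motor arms along these cilia. The flow biases NODAL, a secreted factor of the TGF-β family, to the left lateral plate mesoderm, where NODAL switches on its own inhibitor *Lefty2*. The heart field is the part of that mesoderm that feeds the heart tube, with a second heart field at both poles and cardiopulmonary progenitors at the venous pole. Heterotaxy means that organs do not share a single direction of laterality, in contrast to situs solitus, the usual arrangement.

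Left libraries held between 38886687 and 55958371 counts, with a median of 44816551 in heterotaxy and 44381678 in situs solitus. Levels are CPM, the counts of a gene scaled to a common effective library size, and compare one gene across libraries. *Ccdc40* itself stood at 11.8 to 14 CPM in heterotaxy, at 9.88 to 12.3 CPM in situs solitus mutants and at 15.3 to 23.3 CPM in wild types, so that all 11 mutants were below all 5 wild types. Per the study's methods the heart tube was taken away in the dissection. Heart muscle genes were present in every library, with *Myl7*, an atrial myosin light chain, between 201 and 785 CPM, and their source was not tested. A principal component analysis of the 500 most variable genes interleaved both clusters, and its first component, with 33.1% of the variance, ran from wild type 8_1 to heterotaxy embryo 15_5.

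The heterotaxy library of embryo 15_5 stood apart. Of 11213 genes, 32 were more than 4-fold above the next library there, against 0 in each other heterotaxy library and at most 1 in any situs solitus library. A list of 12 genes of the uterine lining, chosen after these values were seen, summed to 886 CPM in 15_5, to at most 82.5 CPM in the other heterotaxy libraries and to 14.8 to 206 CPM in situs solitus. *Prl8a2*, a prolactin family hormone of the decidua, was not particular to this embryo, at 68.4 CPM in 15_5 and at 0.313 to 111 CPM in situs solitus. None of the 12 was at 0 in 15_5, and the part of such tissue in the results was not tested. The posterior gene *Hoxa10*, which is also active in the uterus, had a level of 90.2 CPM on this embryo's left and of 114 CPM on its right. Where leaving out 15_5 changes a value or count by much, both are given below. Situs solitus mutant 2_2 held the lowest value for 1676 of the 11213 genes, against at most 1064 in any other left library. The gene lists below were not computed without 2_2, in either fit.

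By edgeR no gene passed the threshold between the clusters on the left. With sex as a covariate, the quasi-likelihood test of edgeR called 0 of 23747 genes at a threshold of 0.05 on the adjusted p, which is 0% of those tested, and the smallest adjusted p was 0.879. An unadjusted p under 0.05 was found for 1221 genes (5.14%), of which 528 were higher (2.22%) and 693 lower (2.92%) in heterotaxy. DESeq2 called 3 genes (0.0126%), which were *Gm15459* and *Slc5a6*, both higher, and *Fzd7*, lower, the last being among the asymmetric genes of the wild types that the grouping may have used, so that its call is no test. Without 15_5 edgeR called 0, with 1084 at an unadjusted p under 0.05, 343 higher and 741 lower.

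The precision behind this count was fair for well expressed genes. Among 11599 genes with a mean of at least 200 counts in either cluster, the median SE of the log2 fold change was 0.08, and the 95% interval lay within 1 log2 unit of 0 on both sides for 97.6% and within 0.5 for 88.8%. Their median SD of log2 CPM between embryos was 0.13 in heterotaxy and 0.15 in situs solitus, the latter being 0.15 in wild types and 0.13 in mutants. The median log2 fold change over all genes tested was 0.00. Fewer cells of a type and less RNA per cell cannot be told apart in these libraries.

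**Figure D1:**
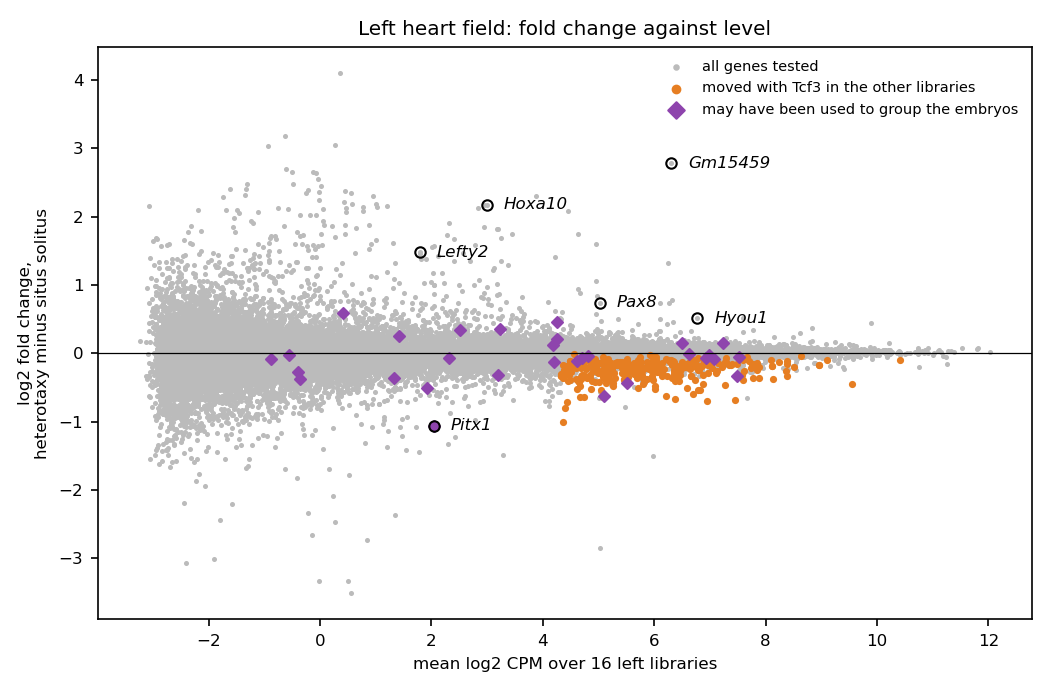
Log2 fold change of each gene on the left, heterotaxy minus situs solitus, against its mean log2 CPM over 16 left libraries. Grey points are all 23747 genes tested, orange points are 306 genes that moved with *Tcf3* in other libraries and all lie below 0, and purple diamonds are genes that may have been used to group the embryos.

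The genes that may have grouped the embryos were sought again in the wild types. Right and left differed in 19 genes over all wild types and in 84 over the males alone, 91 in all, and 30 of these kept the same direction in each wild type. The list of the study was narrower, since it also left out genes not expressed in myocardial lineages. *Pitx1*, a homeobox transcription factor, stood at 1.78, 2.06 and 3.6 CPM (lowest, median, highest) in heterotaxy and at 2.63, 4.61 and 10.7 CPM in situs solitus, a log2 fold change of -1.06 (SE 0.27). The clusters overlapped between 2.63 and 3.6 CPM. *Fzd7*, a WNT receptor, stood at 32.9, 37.6 and 42.3 CPM in heterotaxy against 39.8, 52.2 and 59.6 CPM in situs solitus (-0.43, SE 0.09). *Postn*, which encodes the matrix protein periostin, stood at 17.0, 22.9 and 37.7 CPM against 10.2, 30.6 and 128 CPM, and the highest value was that of wild type 17_7. *Ccn4*, a secreted WNT target of the cardiopulmonary progenitors, differed by -0.12 (SE 0.26). These values describe genes that the grouping itself may have used.

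The study's signature of 8 genes was chosen on these samples, so its direction on the left is not independent evidence. Its median log2 fold change was -0.41, and -0.30 without 15_5, with 6 members lower and 2 higher by fold. Set against the situs solitus mutants alone, by genotype in the fit, the median was -0.11. In that fit 1 member, the prostaglandin receptor *Ptgfr*, was higher at an unadjusted p under 0.05 (0.48, SE 0.21), beside 7.26% of all genes at such a p. Of the signature's 5 members outside the grouping genes, none had such a p between the clusters, beside 5.14% of all genes. *Retreg1* was at 5.22 CPM (median) in heterotaxy against 7.28 CPM, *Trabd2b*, an inhibitor of WNT ligands, at 6.62 against 8.94 CPM, and *Misp3* at 3.84 against 7.07 CPM, all with overlapping ranges. *Hspb8*, a small heat shock protein, had a log2 fold change of 0.61 (SE 0.37) with 15_5, where it reached 51.4 CPM, and -0.18 without it.

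Since no gene passed by edgeR, the genes described next are the 10 in each direction with the smallest unadjusted p among those with at least 200 counts. Each had an adjusted p of 0.879 by edgeR, and of the 20 DESeq2 called *Gm15459* and *Slc5a6*. They were picked for their small p, so a permutation p on the same values is no independent test of them.

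*Gm15459* had the largest difference among these 20. It is a processed pseudogene on the minus strand at chr5:5831615-5833555 of GRCm39, a copy of *Hspa8*, which encodes the constitutive chaperone HSC70 and lies at chr9:40711630-40731039. *Gm15459* stood at 319 CPM in 3_7, 275 CPM in 15_5 and 350 CPM in 18_1, but at 25.5 CPM in 19_4, 24.7 CPM in 23_3 and 22.5 CPM in 32_3. In situs solitus it ranged from 16.4 to 29.4 CPM with a median of 25.1 CPM. Thus 3 heterotaxy embryos were high and the other 3 lay within the range of situs solitus. The log2 fold change was 2.78 (SE 0.52, edgeR unadjusted p 5.33e-05, exact two-sided permutation p 0.0212, adjusted p 0.00986 with DESeq2). The same 3 embryos were high on the right, with 318, 260 and 323 CPM, and the 10 libraries of embryos with inverted looping lay between 19.4 and 32.8 CPM.

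The copy is near identical to its source, so reads of one can be counted on the other. Over 1941 coding bases of *Hspa8*, the GRCm39 sequences differ at 5 bases (99.7% identity). Counted from 1 at the first base of the start codon, with the *Hspa8* base first, these are G114A, C414T, C549T, G1222A and C1440T. Windows of 61 bases around 3 of them are shown 5′ to 3′ because they are all that distinguishes both genes there, with the differing base in capitals.
*Hspa8* exon 2, plus strand, chr9:40713302-40713362: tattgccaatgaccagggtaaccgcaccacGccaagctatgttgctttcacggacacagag
*Gm15459*, minus strand, chr5:5833412-5833472: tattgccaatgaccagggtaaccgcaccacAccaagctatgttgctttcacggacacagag
*Hspa8* exon 6, plus strand, chr9:40715107-40715167: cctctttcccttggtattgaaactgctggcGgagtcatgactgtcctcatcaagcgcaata
*Gm15459*, minus strand, chr5:5832304-5832364: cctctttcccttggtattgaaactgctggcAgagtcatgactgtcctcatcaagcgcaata
*Hspa8* exon 7, plus strand, chr9:40715547-40715607: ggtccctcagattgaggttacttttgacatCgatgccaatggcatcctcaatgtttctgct
*Gm15459*, minus strand, chr5:5832086-5832146: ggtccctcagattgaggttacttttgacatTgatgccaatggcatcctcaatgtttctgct

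Of all counts on *Gm15459* and *Hspa8*, the share on *Gm15459* was 13.9% in 3_7, 13.5% in 15_5 and 13.5% in 18_1 on the left. It was between 0.792% and 1.08% in the other 13 left libraries. On the right of the same 3 embryos it was 13.7%, 13.5% and 13.3%. *Hspa8* itself stood at 1758, 2339 and 2674 CPM in heterotaxy and at 2052, 2506 and 2938 CPM in situs solitus (log2 fold change -0.15, SE 0.09), and the clusters overlapped. Whether the share reflects transcription of the pseudogene or the placing of reads of *Hspa8* was not tested, and the counts of both genes are uncertain for this reason.

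*Hyou1*, which encodes a chaperone of the endoplasmic reticulum at chr9:44290418-44303666, was high in the same 3 embryos. It stood at 152 CPM in 3_7, 147 CPM in 15_5 and 204 CPM in 18_1, whereas the other heterotaxy embryos had 101 to 105 CPM and situs solitus 75.3 to 104 CPM. The log2 fold change was 0.52 (SE 0.13) on the left and 0.53 on the right.

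**Figure D2:**
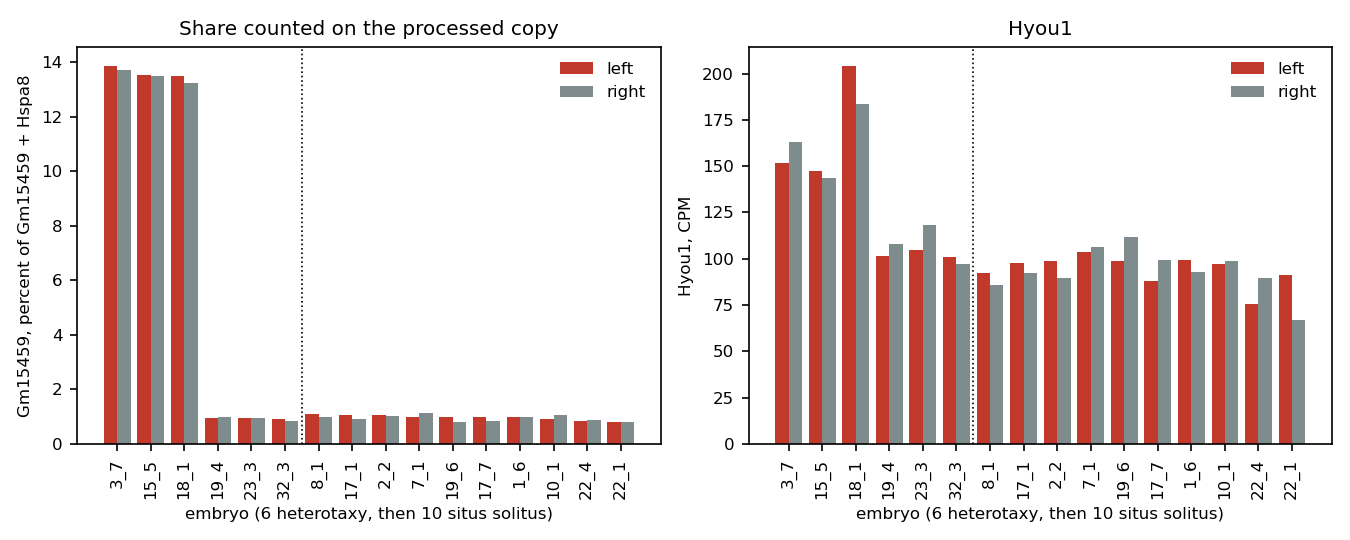
Share of *Gm15459* and *Hspa8* counts that fell on *Gm15459* (percent) and the level of *Hyou1* (CPM), by embryo, with the left library in red and the right in grey. Embryos 3_7, 15_5 and 18_1 stand above all others on both sides.

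The other 8 genes with the smallest p among those higher in heterotaxy differed by less than 1 log2 unit. *Slc5a6*, a transporter of the vitamins biotin and pantothenate at chr5:31193379-31206268, stood at 26.4, 28.8 and 31.2 CPM in heterotaxy and at 22.9, 24.7 and 26 CPM in situs solitus. All 6 heterotaxy embryos were above all 10 of situs solitus, by a log2 fold change of 0.22 (SE 0.05, 95% interval 0.11 to 0.33), with an exact two-sided permutation p of 0.000125, the smallest that 6 against 10 embryos can give. Only 2 of the 23747 genes had clusters that did not overlap (0.00842%), the other being the pseudogene *Gm5069* at 0.296 to 0.354 against 0.386 to 0.712 CPM, which is named after its values were seen. This share is below 0.000125, so the separation of *Slc5a6* does not stand out among all genes tested. On the right *Slc5a6* differed by 0.11, and its ranges overlapped there.

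*Pax8*, a transcription factor of thyroid and kidney development, stood at 37.3, 44.5 and 50.8 CPM in heterotaxy and at 12.6, 24.4 and 40.8 CPM in situs solitus. Every heterotaxy embryo lay above the situs solitus median, and the log2 fold change was 0.74 (SE 0.20) on the left and 0.35 on the right. *Adgrg3*, an adhesion receptor of the G protein coupled kind, stood at 3.59, 4.65 and 8.43 CPM against 2.07, 3.57 and 4.61 CPM, and its log2 fold change of 0.66 became 0.43 without 15_5. *Shc1*, an adaptor of receptor tyrosine kinases, had 155, 160 and 212 CPM against 136, 145 and 157 CPM, a log2 fold change of 0.21 that became 0.12 without 15_5. *Mfap4*, a microfibril protein of the matrix, differed by 0.26, the histone methyltransferase family member *Setdb2* by 0.26, the ubiquitin ligase *Herc4* by 0.14 and *4933431E20Rik* by 0.38.

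**Figure D3:**
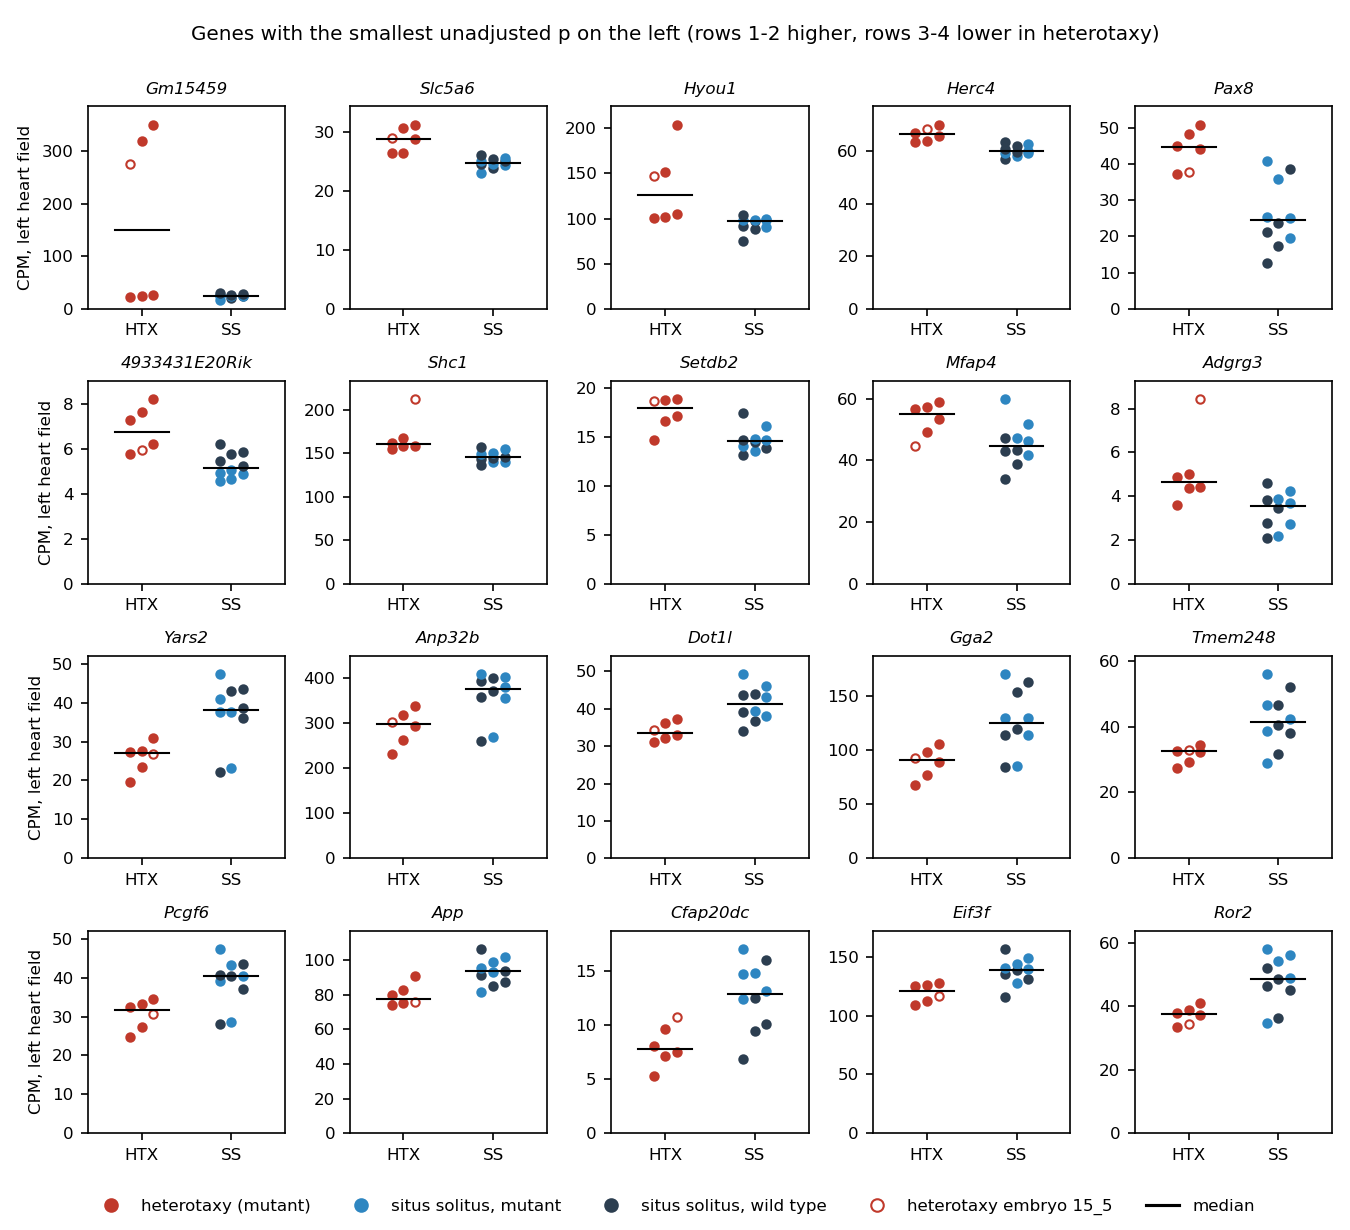
CPM of the 20 genes with the smallest unadjusted p on the left, with heterotaxy (HTX) against situs solitus (SS), 1 point per embryo and a line at the median. Open points mark embryo 15_5, and in 19 of the 20 panels the clusters overlap.

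The 10 genes with the smallest p among those lower in heterotaxy differed by 0.21 to 0.69 log2 units. *Yars2*, the mitochondrial tyrosyl-tRNA synthetase, stood at 19.7, 27.1 and 30.9 CPM in heterotaxy and at 22.1, 38.1 and 47.3 CPM in situs solitus (-0.53, SE 0.13). *Gga2*, an adaptor of Golgi transport, stood at 67.6, 91.3 and 106 CPM against 84.7, 125 and 171 CPM (-0.54, SE 0.14). *Ror2*, a receptor of WNT5A, stood at 33.5, 37.4 and 40.8 CPM against 34.7, 48.7 and 58.0 CPM (-0.38, SE 0.10). In each of these the heterotaxy embryos lay in the lower part of the situs solitus range or under it. *Cfap20dc*, a gene named for a domain of a ciliary protein, stood at 5.29, 7.79 and 10.7 CPM against 6.85, 12.9 and 17.0 CPM (-0.69, SE 0.18). The rest were the histone chaperone *Anp32b* (-0.33), the H3K79 methyltransferase *Dot1l* (-0.29), *Tmem248* (-0.43), the Polycomb member *Pcgf6* (-0.37), the amyloid precursor *App* (-0.23) and the translation factor subunit *Eif3f* (-0.21).

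Of these 10 genes, 8 moved together with many others across embryos on both sides. The set was defined after the values were seen, from 26 libraries that are not in the comparison, namely the right libraries of the same embryos and both sides of the inverted ones. In those, 306 of 7850 genes above 20 CPM followed *Tcf3*, the gene of the E protein E2A, with a correlation over 0.8, which is a description. On the left, *Tcf3* stood at 91.6, 130 and 154 CPM in heterotaxy and at 112, 199 and 303 CPM in situs solitus (-0.68, SE 0.18). All 306 were lower by fold in heterotaxy, with a median log2 fold change of -0.22. *Tcf3* was itself lower there and was chosen after that was seen. The shared direction thus follows at least in part from the choice and is no test. The 306 genes are not independent of each other, and 202 of them (66.0%) were among the 693 lower genes at an unadjusted p under 0.05.

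Their mean deviation from the average library ran from -0.39 to 0.00 log2 units in heterotaxy, with a median of -0.09, and from -0.25 to 0.38 in situs solitus, with a median of 0.12. The clusters overlapped, with 19_4 the lowest of all and 2 situs solitus embryos, 8_1 and 1_6, among the low ones. On the right the order was not kept, with medians of 0.15 in heterotaxy and 0.03 in situs solitus. Median GC content was 50.9% in these genes against 48.6% in all genes above 20 CPM. With their mean as a covariate, 712 genes had an unadjusted p under 0.05, 396 higher and 316 lower, and the median SE was 0.22 in place of 0.17. Members of the set must come nearer to 0 in that fit by its construction, as *Yars2* (-0.11) and *Gga2* (-0.08) did. Outside the set *Slc5a6* differed by 0.22 and *Pax8* by 0.67. Their part in the lower genes was not tested further.

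**Figure D4:**
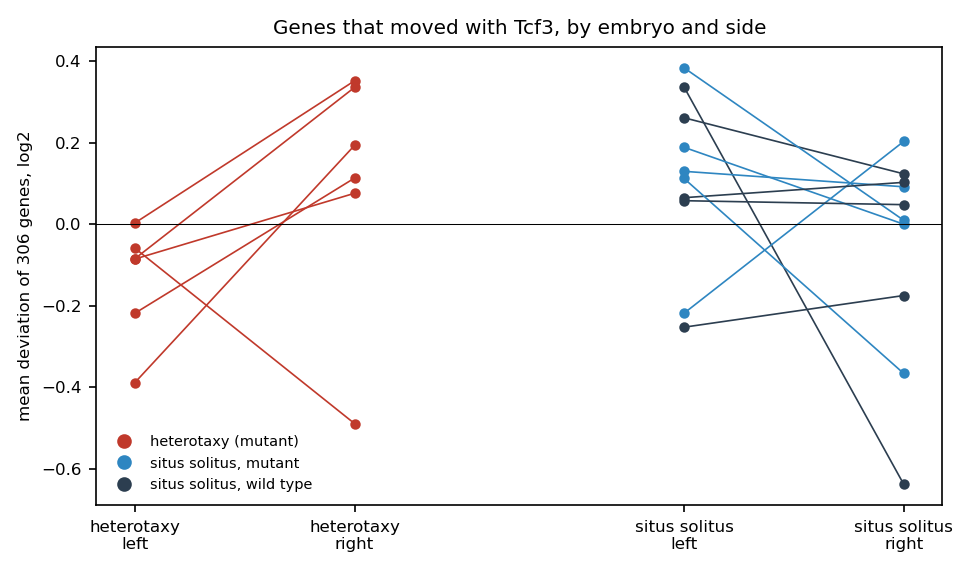
Mean deviation in log2 units of 306 genes that moved with *Tcf3*, by embryo, side and cluster. On the left heterotaxy lies between -0.39 and 0.00 and situs solitus between -0.25 and 0.38, and on the right both spread more widely.

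The situs solitus cluster holds wild types and mutants, and heterotaxy holds mutants alone. With genotype in the fit, which then sets 6 heterotaxy mutants against 5 situs solitus mutants, edgeR called 0 genes (0%), with a smallest adjusted p of 0.499 and 1725 genes (7.26%) at an unadjusted p under 0.05. DESeq2 called 89 in that fit (0.375%), 15 higher and 74 lower, and 36 of the lower ones were among the 306 that moved with *Tcf3*. None of the 89 was a grouping gene. *Cfap20dc* differed by -0.98 among mutants (SE 0.17), with an adjusted p of 0.499 by edgeR and 8.03e-05 by DESeq2. *Tbx1*, a T-box factor of the second heart field at chr16:18399729-18409421, stood at 17.3, 24.9 and 36.8 CPM in heterotaxy, at 18.3 to 56.3 CPM in situs solitus mutants and at 16.8 to 39.9 CPM in wild types. Its log2 fold change was -0.64 (SE 0.26) between clusters and -1.08 (SE 0.24) among mutants, with an adjusted p of 0.0224 in DESeq2 and 0.499 in edgeR for the latter. It is among the 306 genes, so that its log2 fold change of 0.05 with their mean as a covariate follows in part from that choice.

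In the NODAL pathway, 1 of 17 genes tested outside the grouping had an unadjusted p under 0.05, which is near the 5.14% of all genes. This was *Lefty2* at chr1:180720635-180726932, a secreted inhibitor and target of NODAL. It stood at 1.47, 3.91 and 15.5 CPM in heterotaxy and at 0.773, 1.6 and 5.05 CPM in situs solitus (log2 fold change 1.48, SE 0.52, adjusted p 0.888 by edgeR, exact two-sided permutation p 0.0512). The highest value was that of 15_5, the next was 6.79 CPM in 19_4, and without 15_5 the log2 fold change was 0.65 and 0 of the 17 genes had an unadjusted p under 0.05. In situs solitus the wild types stood at 0.773 to 2.55 CPM and the mutants at 1.13 to 5.05 CPM, and among mutants alone the log2 fold change was 0.94 (SE 0.57), with an unadjusted p of 0.121 by edgeR. *Nodal* was near the lower end of detection, at 0.0684 to 0.199 CPM against 0.0524 to 0.269 CPM. The NODAL inhibitor *Dand5* differed by 0.12 (SE 0.18), *Lefty1* by -0.10 (SE 0.28) and the transducer *Smad2* by 0.08 (SE 0.04). The list's median was 0.00.

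Of the 24 WNT ligands tested, 0 had an unadjusted p under 0.05, and their median was -0.02. *Wnt2*, a ligand of cardiopulmonary progenitors, stood at 136, 170 and 264 CPM in heterotaxy and at 27.8, 189 and 278 CPM in situs solitus. The 27.8 CPM was that of mutant 2_2, and the next lowest situs solitus value was 133 CPM. Among WNT receptors and transducers, 26 of 33 were lower by fold with a median of -0.06, and 4 of the 32 outside the grouping were lower at an unadjusted p under 0.05, against 0 higher, beside 2.92% lower and 2.22% higher of all genes. Without 15_5 these were 4 lower and 1 higher. These were *Fzd1* (-0.57, SE 0.22), *Ror2*, the atypical kinase receptor *Ryk* (-0.19, SE 0.08) and the transducer *Ctnnb1* (-0.18, SE 0.07), whose product is β-catenin. *Ror2*, *Ctnnb1* and *Fzd7* were also among the genes that moved with *Tcf3*. *Fzd1* stood at 11.7, 14.6 and 21.6 CPM against 10.6, 21.8 and 35.9 CPM, so that heterotaxy lay inside the situs solitus range. Of 19 inhibitors and targets outside the grouping, 0 had such a p, and 1 was lower at it without 15_5, and the target *Axin2* differed by 0.24 (SE 0.13).

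In the hedgehog pathway 3 of 14 genes were lower at an unadjusted p under 0.05, beside 2.92% of all genes, and none was higher. Without 15_5 these were 2 lower and 1 higher. The 3 were the ligand *Ihh* (-0.72, SE 0.30), the signal transducer *Smo* (-0.36, SE 0.10) and the co-receptor *Gas1* (-0.32, SE 0.10), and *Ihh* was no longer at such a p without 15_5 (-0.60). *Smo* stood at 42, 47.0 and 55.4 CPM against 44.3, 61.3 and 72.1 CPM, and it moved with *Tcf3*. Of 29 genes of the BMP pathway, 19 were lower by fold and 2 at an unadjusted p under 0.05, beside 2.92% of all genes. The 2 were extracellular modulators, *Nog* (-0.67, SE 0.27) and *Twsg1* (-0.16, SE 0.05). The ligand *Bmp2* stood at 29.5, 41.0 and 53.5 CPM against 13.6, 35.5 and 50.2 CPM.

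Beside 2.92% lower and 2.22% higher of all genes, FGF genes gave 1 lower and 1 higher of 22, the receptor *Fgfr1* (-0.35, SE 0.11) and the ligand *Fgf17* (0.90, SE 0.41). *Fgfr1* stood at 51.3, 53.5 and 56.6 CPM in heterotaxy, a narrow band within the 47.2 to 86.6 CPM of situs solitus. The Notch target *Hes1* was the only one of 21 Notch genes at an unadjusted p under 0.05 (-0.52, SE 0.18), and of 16 genes of retinoic acid signalling there was none, and these counts are near those shares. *Fgfr1* and *Hes1* moved with *Tcf3*.

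Second heart field genes had a median of -0.05, and *Tbx1* was the only one of 19 at an unadjusted p under 0.05, near the 5.14% of all genes. *Isl1*, a marker of these progenitors, stood at 57.1, 85.8 and 134 CPM in heterotaxy and from 51.6 to 140 CPM in situs solitus, so that the former lay within the latter. Genes of the venous pole and cardiopulmonary progenitors had a median of 0.07 over 18, and none of the 17 outside the grouping had such a p. *Osr1*, a marker of the latter, differed by 0.27 (SE 0.17), and *Shox2*, of the sinoatrial node, by -0.14 (SE 0.40). Situs solitus mutant 2_2 was far below the rest of its cluster for some of these genes. *Tbx5* was at 5.80 CPM there (next lowest 44.3 CPM) and *Shox2* at 0.549 CPM (next lowest 3.09 CPM). *Osr1* was not lowest there, at 32.4 CPM against 25.8 CPM in wild type 22_4. How far the median of this list rests on 2_2 was not tested. Heart muscle genes had a median of 0.08 over 26, none at an unadjusted p under 0.05. *Myh6*, the alpha myosin heavy chain, ranged from 341 to 1520 CPM in heterotaxy and from 69.3 to 1300.1 CPM in situs solitus, a spread within clusters that exceeded the difference of 0.13 (SE 0.38). The 69.3 CPM was that of 2_2, and the next lowest situs solitus value was 414 CPM.

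**Figure D5:**
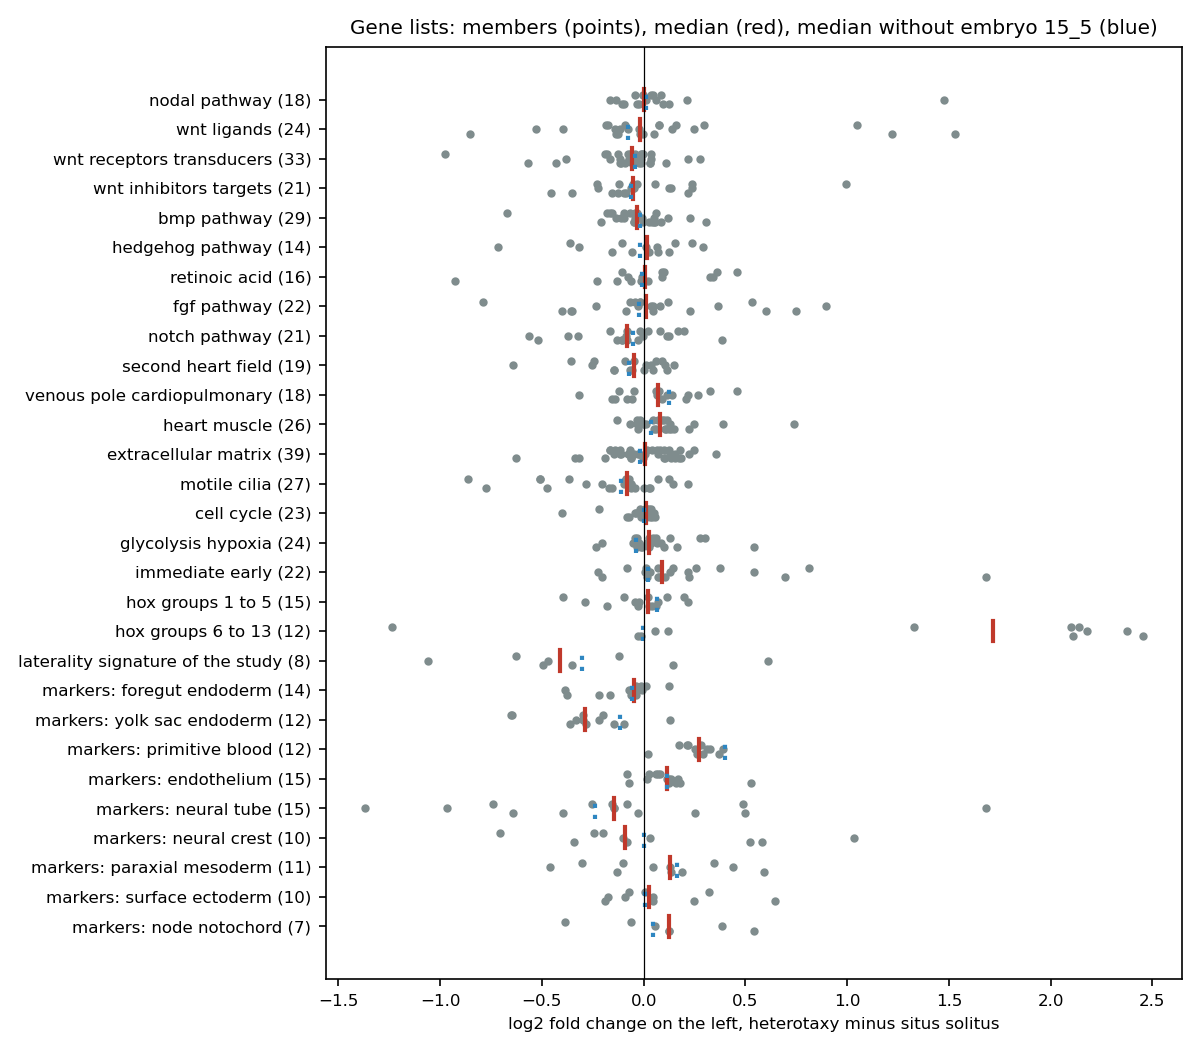
Log2 fold change on the left of each tested member of the gene lists (points), with the median in red and the median without embryo 15_5 in blue. The median of posterior *Hox* genes moves from 1.72 to -0.00. Genes of the uterine lining aside, the other medians lie between -0.41 and 0.27 with 15_5 and between -0.30 and 0.40 without it.

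Of 35 matrix genes outside the grouping, *Vcan* was higher and *Agrn* lower at an unadjusted p under 0.05, near the 2.22% and 2.92% of all genes, and without 15_5 these counts were 2 and 0. *Vcan*, which encodes the proteoglycan versican of the cardiac jelly, stood at 285, 323 and 342 CPM in heterotaxy and at 226, 273 and 328 CPM in situs solitus (0.25, SE 0.07). On the right it differed by -0.11. *Agrn*, another proteoglycan, differed by -0.17 (SE 0.08) and was no longer at such a p without 15_5 (-0.15). *Spag1*, which encodes an assembly factor of ciliary motors, was the only one of 27 motile cilia genes at such a p, with 5.60, 6.20 and 7.10 CPM against 6.13, 7.13 and 8.92 CPM. *Hk2*, a hexokinase, was the only one of 24 glycolysis and hypoxia genes (0.17, SE 0.08), which it lost without 15_5 (0.12) while another member of the list reached it, and 0 of 23 cell cycle genes and 0 of 22 immediate early genes reached it.

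Anterior *Hox* genes of groups 1 to 5 had a median of 0.02, with none of 15 at an unadjusted p under 0.05. Of 12 posterior *Hox* genes tested, 7 were higher and *Hoxb8* was lower at an unadjusted p under 0.05, beside 2.22% and 2.92% of all genes, with a median of 1.72. Without 15_5 none was higher and the median was -0.00. *Hoxa10* stood at 0.336, 2.15 and 90.2 CPM in heterotaxy and at 0.0448, 1.83 and 8.26 CPM in situs solitus, and its log2 fold change of 2.18 became -0.12 without 15_5. The genes of the uterine lining were chosen after the high values in 15_5 were seen, which fixes their direction, and 3 of them, *Hoxa10*, *Hoxa11* and *Hoxd10*, are also posterior *Hox* genes. Their median was 1.92 with 15_5 and -0.07 without it, as a description. *Tdo2*, an enzyme of the decidua, was at 224 CPM in 15_5 and at most 24.8 CPM in the other heterotaxy libraries.

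Summed levels of the markers of other embryonic tissues that a dissection can hold overlapped between the clusters in every list. Endothelium had 3 of 15 genes higher at an unadjusted p under 0.05, beside 2.22% of all genes, *Pecam1* (0.16, SE 0.07), *Sox18* (0.53, SE 0.25) and *Esam* (0.18, SE 0.06), with summed levels of 673 to 740 CPM against 596 to 759 CPM. All 12 genes of primitive blood were higher by fold, none with such a p, and their sum was 711 to 1889 CPM in heterotaxy and 344 to 2115 CPM in situs solitus. Of 12 genes of yolk sac endoderm, 11 were lower by fold (median -0.29, and -0.11 without 15_5), with sums of 168 to 1074 CPM against 44.8 to 1212 CPM. Neural tube markers summed to 82.7 to 185 CPM against 79.0 to 210 CPM, and *Irx3* was lower at an unadjusted p under 0.05 (-0.25, SE 0.11) but not without 15_5 (-0.24). Neural crest and surface ectoderm had 1 gene each, *Sox9* (0.52, SE 0.24) and *Tfap2c* (0.64, SE 0.28). *Tfap2c* was highest of all 16 in 15_5 at 21.1 CPM, and without it the log2 fold change was 0.49 and the unadjusted p was over 0.05. In foregut endoderm, paraxial mesoderm, node and notochord 0 genes outside the grouping reached an unadjusted p under 0.05. The part of these tissues in the values above was not tested.

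With genotype in the fit, which sets heterotaxy against situs solitus mutants alone, several of these counts were different. Over all genes, 7.26% had an unadjusted p under 0.05 in that fit, 678 higher and 1047 lower of 23747. In endothelium 1 of 15 was higher, *Esam* (0.19, SE 0.07). *Sox9* (0.35, SE 0.29) and *Tfap2c* (0.54, SE 0.35) were not at such a p, and neural crest had 1 gene lower and surface ectoderm none. Second heart field genes had 2 lower and a median of -0.18, and FGF genes 2 lower and none higher. The NODAL pathway had 1 higher and 2 lower, WNT receptors and transducers 5 lower, WNT inhibitors and targets 1 lower, and matrix genes 1 higher and 3 lower. Neural tube markers had 2 lower and foregut endoderm 1 lower, the venous pole and the cell cycle had 1 higher each, and retinoic acid signalling and immediate early genes had 1 in each direction. Posterior *Hox* genes had 1 higher and genes of the uterine lining none. The counts of the hedgehog, BMP, Notch, motile cilia and glycolysis lists were the same in both fits.

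The right libraries of the same embryos gave 0 called genes of 23674 tested and 1870 at an unadjusted p under 0.05. On the left these were 0 and 1221 of 23747. Whether a difference on the left departed from that on the right was tested with the embryo as a block, and edgeR called 0 of 25381 genes, with 1783 (7.02%) at an unadjusted p under 0.05 and a smallest adjusted p of 0.503. DESeq2 called 44 of the 25381, of which 3 were higher and 41 lower on the left relative to the right. The clusters were drawn from differences between sides in these same libraries, so these calls are no independent test. How many of the 44 were grouping genes or moved with *Tcf3* is not given. For *Gm15459* the difference between sides was 0.06 (SE 0.10), and for *Hyou1* it was -0.05 (SE 0.09), and both were high on both sides of the same embryos. For *Slc5a6* it was 0.11 (SE 0.10), for *Pax8* 0.36 (SE 0.28) and for *Tbx1* -0.89 (SE 0.45).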

How the data were processed

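Left and right heart fields were sequenced from poly-A RNA amplified by PCR. Per the methods and the submitters' processing notes, duplicates were removed, reads were mapped to GRCm39 with STAR and counted with featureCounts of Subread 2.0.6. The authors deposited whole-number counts for 56953 genes, without normalization. Strand and multiple mapping options are not given in the sources used here, so overlapping genes and near-identical copies are uncertain. Of the identifiers, 56310 were in the annotation.

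Counts were filtered by filterByExpr (the study's limits, with a minimum count of 5, a total of 10, a proportion of 0.2 and large groups above 50), normalized by TMM and tested with the quasi-likelihood test of edgeR 4.0.16 in R 4.3.3, with sex as a covariate and Benjamini-Hochberg adjustment over all genes. The study used DESeq2, which is an alternative here (version 1.42.0). Exact permutation tests over embryos (8008 splits, two-sided) used log2 CPM with a prior count of 2. Intervals are at 95%. The right libraries pair with the left by the embryo in the labels. Each library is 1 embryo, and litters are not used here. Scripts were tested on simulated data.

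Members, clusters and lists were chosen with earlier results of these data known, and the clusters follow the study's cluster figure. The genes named are up to 10 in each direction by unadjusted p with a mean of at least 200 counts, those the study names, and listed pathway members at an unadjusted p under 0.05, while others are named as examples. Counting error at 0 counts allows 3 counts. Alternatives were other tests, normalizations, filters, covariates, reference groups and leaving out each embryo. Those chosen after seeing the data were robust and newer dispersions, DESeq2 with genotype, the mean of genes that moved with *Tcf3* as a covariate, the fit without the embryo block, and the lists without 15_5. 1 gene that the study names is not reported here.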

Additional observations from a re-analysis of the deposited data

Results flagged for a closer look

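Levels of 88 genes were screened in both clusters on the left for a library farther from its neighbour than Dixon's 95% limit allows. Of 176 groups of values, 20 held such a library. Chance alone marks about 1 in 20 groups, but the genes include ones picked for their high values in 15_5 and ones picked for their small p, so the number found cannot be read against that rate.

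In heterotaxy 9 of these were in embryo 15_5, as the highest value. They were *Cxcl14* at 239 CPM, *Tdo2* at 224.1 CPM, *Akr1c18* at 91.2 CPM, *Hoxa10* at 90.2 CPM, *Lmna* at 63.7 CPM, *Hspb8* at 51.4 CPM, *Fzd1* at 21.6 CPM, *Shc1* at 212 CPM and *Adgrg3* at 8.43 CPM. Embryo 3_7 was highest for the muscle gene *Myh6* at 1520 CPM and for the endothelial gene *Pecam1* at 34.6 CPM. Embryo 19_4 was highest for the prostaglandin receptor *Ptgfr* at 6.44 CPM, and embryo 32_3 was lowest for *Dand5* at 1.51 CPM.

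In situs solitus 4 were in wild type 17_7, the highest for *Postn* at 128 CPM, *Cxcl14* at 27.3 CPM, *Hspb8* at 15.8 CPM and *Hoxb8* at 1.92 CPM. Wild type 22_4 was highest for *Pitx1* at 10.7 CPM, wild type 8_1 for the neuropeptide *Gal* at 9.33 CPM, and mutant 2_2 for the ligand *Wnt5a* at 84.4 CPM.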

How the results depend on the processing

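The count of genes called on the left was 0 with edgeR under every normalization, filter, covariate, reference group and dispersion tried, and leaving out each embryo in turn gave 0 to 0. DESeq2 called 3 genes, 2 higher and 1 lower, and with genotype in the fit 89, of which 15 were higher and 74 lower. For the difference between sides DESeq2 called 44, of which 3 were higher and 41 lower, while edgeR gave 0 to 0 when each embryo was left out. The cause of the gap between both tools was not tested. Of the log2 fold changes of 22 genes, which were the 20 with the smallest p, *Lefty2* and *Tbx1*, 14 values passed the threshold under DESeq2, 689 kept their direction and side, and 1 reversed, namely *Tbx1* at 0.052 with the mean of genes that moved with *Tcf3* as a covariate, where it was -0.64 without that term. Outside these 22, the log2 fold changes of *Hspb8* (-0.18), *Hoxa10* (-0.12) and others that rest on 15_5 changed sign without it. Both sides are paired by embryo, and without the replicate block edgeR also called 0 genes for the difference between sides, with 1201 at an unadjusted p under 0.05. Depth limits low genes most, since the interval lay within 1 log2 unit of 0 in 78.9% of all genes tested. The clusters were drawn on these same libraries, which limits all comparisons.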

Other observations

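Among the 7850 genes above 20 CPM, the 20 with the strongest correlation of log2 levels with *Gm15459*, of either sign, over all 42 libraries were listed after its values were seen, and 7 of them lie on chromosome 9, which holds 449 (5.72%) of those 7850. Of these, *Hyou1*, *Ubash3b*, *Fam219b* and *Ube4a* ran in the same direction as *Gm15459*, and *Ets1*, *Sorl1* and *Hspa8* itself in the opposite one. Except for *Hyou1* the relation was loose. On the left *Ube4a* was at 71.5 CPM in 15_5, within the 65.7 to 75.5 CPM of situs solitus. Libraries of an embryo share its tissue and genome, so this is a description over 21 embryos of which 3 stand apart, and no test was run.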
